A study of Mus musculus with 20 samples.

Results

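The p53 pathway was described through 31 mouse genes, comprising Trp53 itself, its regulators and genes known as its targets. They were taken by symbol from the 22090 genes of the count table, by a rule that uses no measured value. Of these, 30 were found under their current symbol and Tigar under its older symbol 9630033F20Rik. RNA-seq had been performed on 20 skin tissues of female SKH-1 mice, a hairless strain prone to skin tumors under ultraviolet light. The mice were 7 months old when supplied and older when the tissues were taken, since irradiation came in between. The tissues were 8 normal skin (NS), 8 actinic keratoses (AK, a sun-induced precursor lesion) and 4 cutaneous squamous cell carcinomas (cSCC). They came from 8 mice in 2 arms of 4, one unirradiated and one irradiated with ultraviolet light. Every AK and cSCC came from the irradiated mice, as did 4 of the NS, whereas the other 4 NS came from unirradiated mice. In the study's design, each irradiated mouse gave 1 NS, 2 AK of different grade and 1 cSCC. The mouse of a tissue, the grade of an AK and the irradiation of an NS are not stated in the labels. NS and AK were therefore each kept as 1 group, and tissues were treated as unpaired. Since 4 mice gave all 8 AK, p-values that treat tissues as independent may be too small. Since the groups share mice, leaving out the pairing may also make them too large.

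p53, the product of Trp53, is a transcription factor that is stabilized after DNA damage, including the lesions that ultraviolet light leaves in epidermal DNA. It induces genes that halt the cell cycle, such as Cdkn1a (p21), and genes that trigger apoptosis, such as Bax and Pmaip1 (Noxa). It is held in check by Mdm2, a ubiquitin ligase that is itself a p53 target and so closes a feedback loop, and by the related protein Mdm4. Mutation of the gene is common in sun-induced squamous tumors of the skin. RNA level does not report on the protein's stability, its mutation or its activity, and none of these was measured here.

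Libraries held 775750 to 14055206 counts in total, the shallowest being cSCC 20 and AK 12. Levels are given as CPM, in which counts are scaled to library size with TMM factors set over the 20 samples. The factors ran from 0.9143 to 1.216 in NS and AK and were 0.5086, 1.14, 1.133 and 0.8522 in cSCC 18 to 21. A low factor raises every CPM of its library, so orders among the 4 tumors depend in part on that of cSCC 18. In AK 12, the library with the poorest limit, 3 counts amount to 3.78 CPM, and in the deepest to 0.224 CPM, for counting error only. Keratinocyte markers were present in every tissue, with summed levels of 10096 to 23016 CPM over 10 genes in NS and 12678 to 22815 CPM in AK. In cSCC the sums were 20207, 17998, 5961 and 4530 CPM in replicates 18 to 21. Krt14 weighs most in these sums, with a mean of 6812 CPM in NS and 8662 CPM in cSCC. Of the 10 genes, 5 were called lower in cSCC than in NS and 6 lower than in AK, and 0 higher. Without cSCC 20 and 21, 4 were lower than in NS, and 3 lower and 1 higher than in AK. The sums therefore do not describe all 10 genes. Heart muscle markers (8 genes) summed to 50887 CPM in cSCC 21 and to between 65.3 and 148 CPM in the other cSCC, against at most 71.9 CPM in NS and AK. Lung markers (7 genes) summed to 35940 CPM in cSCC 20 and to at most 8.34 CPM in the other cSCC, against at most 51.7 CPM in NS and AK. Endothelial markers (6 genes) summed to 104 to 518 CPM in cSCC and to 29.9 to 104 CPM in NS, and 5 of the 6 were called higher in tumors than in NS and all 6 higher than in AK, against 0 of 6 in either comparison once cSCC 20 and 21 were left out. Fold changes of pathway genes called in cSCC are therefore given with all 4 tumors and without these 2. In bulk tissue, fewer cells of a type and less RNA per cell cannot be told apart.

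Pmaip1 rose and Sesn1 fell in AK, while in cSCC Mdm4 and Trp53inp1 fell and Bax rose against both NS and AK. A gene was called when its adjusted p-value was under 0.05 (edgeR's quasi-likelihood test, Benjamini-Hochberg over all genes tested) and its fold change was above 1.5 or below 0.67. For AK vs. NS, 1 of the 27 genes tested rose (Pmaip1) and 1 fell (Sesn1), while 2.26% of all 11677 genes tested rose and 2.38% fell. For cSCC vs. NS, 5 of 28 rose (Trp53, Ccng1, Gadd45a, Bax and Tigar) and 2 fell (Mdm4 and Trp53inp1), or 17.9% and 7.14%, while 11.7% of all 12097 genes rose and 7.65% fell. For cSCC vs. AK, 7 of 27 rose (those 5 and Plk2 and Phlda3) and 3 fell (Mdm4, Trp53inp1 and Perp), or 25.9% and 11.1%, while 16% of all 12032 genes rose and 8.34% fell. The share of genes called was larger in the comparisons with cSCC over all genes tested as well as over the pathway, and nothing particular to the pathway is read from these counts. The comparisons share samples, so their counts are not independent of each other. The median log2 fold change of the pathway genes was -0.09 for AK vs. NS, 0.32 for cSCC vs. NS and 0.34 for cSCC vs. AK, beside -0.04, 0.14 and 0.17 for all genes tested.

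Without cSCC 20 and 21, the pathway genes that rose in cSCC vs. NS were Bax, Gadd45a and Phlda3 and those that fell were Mdm4, Trp53inp1 and Sesn1, among 29 tested, while 5.74% of all 12762 genes tested rose and 6.46% fell. In cSCC vs. AK, Aen, Bax, Cdkn1a, Phlda3 and Plk2 then rose and Mdm4, Trp53inp1 and Sesn1 fell, among 28 tested, while 6.71% of all 12567 genes rose and 5.90% fell. Mdm4 and Trp53inp1 thus fell, and Bax rose, in both comparisons, with all 4 tumors as well as with cSCC 18 and 19 alone. With library size in place of TMM factors, Mdm4 and Trp53inp1 were still called lower in both, and Bax was called in neither. With all samples, Bbc3, Pidd1 and Gdf15 were too low to be tested in any of the 3 comparisons and Tnfrsf10b was tested only for cSCC vs. NS. With those 2 tumors left out, Pidd1 could also be tested against NS (log2 0.41 ± 1.03) and Tnfrsf10b against AK (log2 1.22 ± 0.93), and neither was called.

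**Figure D1:**
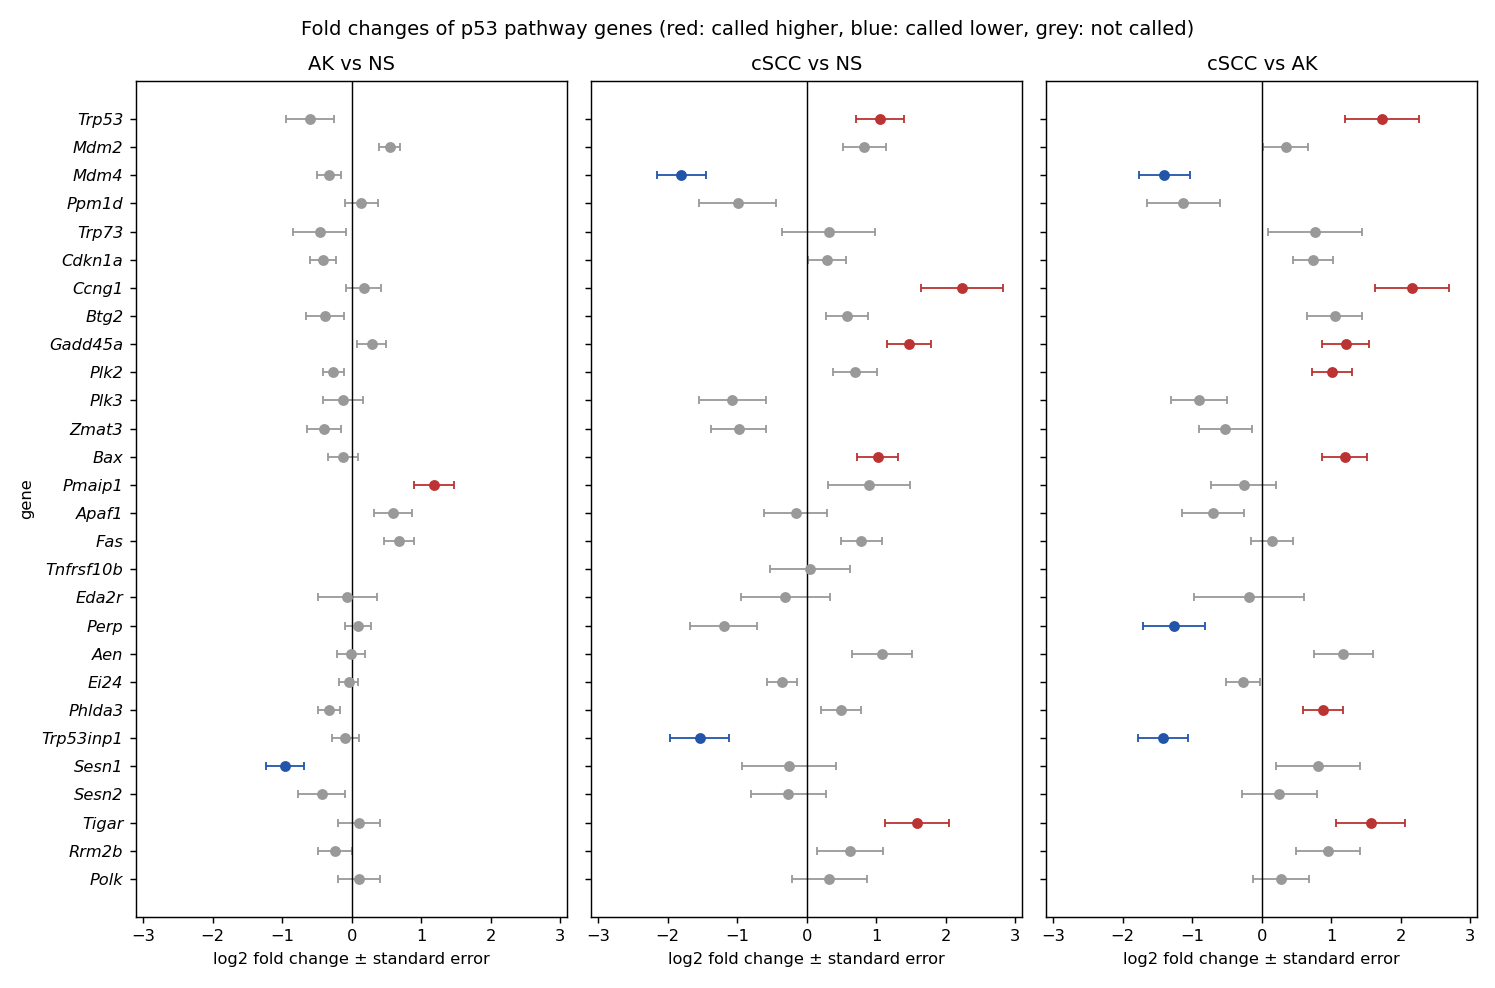
Log2 fold change (horizontal axis) with its standard error for each pathway gene tested (vertical axis) in the 3 comparisons, with all samples kept. Red marks genes called higher in the first group named, blue genes called lower and grey genes not called. In AK vs. NS only Pmaip1 is red and Sesn1 blue, while Mdm4 and Trp53inp1 are blue in both comparisons with cSCC.

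Sequences upstream of the start were examined because p53 binds DNA through a short motif, the p53 half-site, which functional elements usually carry as a pair. RefSeq promoter windows (250 bases before to 50 after a start, GRCm38.p6) were found for 25 of the 31 genes, 34 windows in all. Perp, Pmaip1, Rrm2b, Tnfrsf10b, Trp53inp1 and Zmat3 had none. Searched by its consensus on both strands, the half-site was found in 12 of the 34 windows (35.3%), and in 8.36% of all 32851 windows in the table. Overlapping windows of Aen share a site, and by gene 11 of 25 held a half-site (44%), beside 9.55% of all 27025. The set was chosen as known p53 genes, so the larger share is no result of these tissues. A pair of half-sites at most 13 bases apart was found in 1 window of these genes, that of Cdkn1a, and in 24 of all windows (0.0731%). The 250 upstream bases are shown, half-sites in capitals, for the genes called in a comparison with all samples that hold a match. Cdkn1a, which was not called with all samples, was added after its match was seen. Trp53 lies at chr11:69580109-69580358 (+), Cdkn1a at chr17:29090729-29090978 (+), Ccng1 at chr11:40755287-40755536 (-), Gadd45a at chr6:67037408-67037657 (-), Bax at chr7:45466899-45467148 (-) and the matching of the Sesn1 starts at chr10:41887189-41887438 (+). Each is written 5′ to 3′ on the gene's strand and ends at the base before the start.
Trp53: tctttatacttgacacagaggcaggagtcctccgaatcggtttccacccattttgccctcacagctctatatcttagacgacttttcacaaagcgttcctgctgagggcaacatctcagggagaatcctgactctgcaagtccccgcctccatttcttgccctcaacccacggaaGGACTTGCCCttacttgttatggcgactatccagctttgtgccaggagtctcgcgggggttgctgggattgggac
Cdkn1a: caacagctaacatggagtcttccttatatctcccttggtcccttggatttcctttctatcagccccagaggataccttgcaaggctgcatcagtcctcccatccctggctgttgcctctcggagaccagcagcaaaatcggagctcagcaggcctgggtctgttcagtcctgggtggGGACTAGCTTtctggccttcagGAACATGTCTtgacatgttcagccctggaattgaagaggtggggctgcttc
Ccng1: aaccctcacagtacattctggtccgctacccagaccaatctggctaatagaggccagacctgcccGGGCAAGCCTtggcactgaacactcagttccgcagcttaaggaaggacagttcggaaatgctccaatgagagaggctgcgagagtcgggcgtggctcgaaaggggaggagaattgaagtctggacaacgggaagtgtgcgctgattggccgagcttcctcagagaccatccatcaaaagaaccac
Gadd45a: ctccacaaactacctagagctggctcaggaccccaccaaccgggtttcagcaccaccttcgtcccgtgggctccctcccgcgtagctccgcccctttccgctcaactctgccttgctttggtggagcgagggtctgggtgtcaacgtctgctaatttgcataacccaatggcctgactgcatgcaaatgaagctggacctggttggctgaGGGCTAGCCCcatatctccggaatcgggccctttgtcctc
Bax: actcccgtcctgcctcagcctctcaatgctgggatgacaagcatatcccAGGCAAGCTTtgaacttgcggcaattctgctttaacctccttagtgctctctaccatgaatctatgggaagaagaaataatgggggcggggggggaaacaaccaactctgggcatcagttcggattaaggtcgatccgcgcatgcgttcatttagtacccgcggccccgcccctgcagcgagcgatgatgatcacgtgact
Sesn1: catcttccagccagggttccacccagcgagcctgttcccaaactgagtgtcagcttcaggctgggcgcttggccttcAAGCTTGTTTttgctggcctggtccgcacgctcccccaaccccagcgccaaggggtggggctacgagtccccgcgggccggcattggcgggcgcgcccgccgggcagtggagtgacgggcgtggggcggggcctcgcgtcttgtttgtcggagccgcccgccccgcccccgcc
The first base of the half-site lies 75 bases before the start in Trp53, 185 in Ccng1, 40 in Gadd45a, 201 in Bax and 173 in Sesn1. In Cdkn1a the 2 half-sites begin 73 and 51 bases before this start, and the window of its other start held no half-site. A match describes these letters only, since no binding was measured in these tissues.

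Among the core genes, Trp53 was sparsely counted. It spanned 11.8 to 29.5 CPM in NS, with a median of 18.1, and 0 to 25.4 CPM in AK, with a median of 12.1. The value of 0 belonged to AK 12, the shallowest AK library, where 3 counts correspond to 3.78 CPM, and the next lowest AK had 6.59 CPM. In cSCC the levels were 20.1, 58.9, 20.5 and 53.6 CPM in replicates 18, 19, 20 and 21. Thus 4 of 8 AK were below every NS, and 2 of 4 cSCC were above every NS and AK while the other two lay inside the NS range. The log2 fold change was -0.60 ± 0.35 (standard error) for AK vs. NS, which did not pass (adjusted p = 0.297, edgeR). It was 1.05 ± 0.34 for cSCC vs. NS (adjusted p = 0.0441) and 1.73 ± 0.53 for cSCC vs. AK (adjusted p = 0.0294). Neither call was firm, since leaving out a single library ended the call for cSCC vs. NS in 8 of 12 cases (adjusted p from 0.0654 to 0.167 in these, with a log2 fold change as low as 0.78 without cSCC 19 and 0.83 without cSCC 21). Against AK it ended in 5 of 12 cases (AK 13, 14 or 17, cSCC 19 or 21), with adjusted p up to 0.0959. Without both cSCC 20 and 21, the fold changes were 1.06 ± 0.39 against NS (adjusted p = 0.0888) and 1.69 ± 0.59 against AK (adjusted p = 0.0779), close to those with all tumors, and neither was called.

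Mdm2, the ubiquitin ligase and feedback target, spanned 32.2 to 54.0 CPM in NS, with a median of 41.4, and 41.1 to 79.7 CPM in AK, with a median of 59.9. All AK but AK 13 exceeded every NS. The log2 fold change for AK vs. NS was 0.55 ± 0.15 (1.46-fold), whose adjusted p of 0.0419 by edgeR was under the threshold while the fold change was short of 1.5, so Mdm2 was not called. It was called when NS 5, NS 6 or AK 13 was left out, with a log2 fold change of 0.60, 0.59 and 0.62. In cSCC Mdm2 was spread widely, at 28.5, 116, 50.1 and 91.8 CPM, from below the lowest NS to above the highest AK. The log2 fold change was 0.83 ± 0.31 for cSCC vs. NS (adjusted p = 0.0751, edgeR) and 0.34 ± 0.32 for cSCC vs. AK (adjusted p = 0.460). Without cSCC 18, the lowest, it was 1.08 for cSCC vs. NS with an adjusted p of 0.0101. Without cSCC 19, the highest, it was 0.50 against NS (adjusted p = 0.302) and 0.03 against AK (adjusted p = 0.958), and without both cSCC 20 and 21 it was 0.82 ± 0.37 and 0.31 ± 0.38, not called.

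Mdm4, the second inhibitor of p53, which lacks ligase activity of its own, was the one pathway gene called in both comparisons with cSCC under every alternative run. It stood at 57.8 to 109 CPM in NS (median 85.9), 32.8 to 80.7 CPM in AK (median 74.4) and 9.72, 29.4, 13.7 and 35.2 CPM in cSCC 18 to 21. Every cSCC was below every NS, and 3 of 4 were below every AK, the exception being cSCC 21 at 35.2 beside AK 12 at 32.8 CPM. Of all genes tested, 5.73% lay wholly lower in cSCC than in NS and 2.70% wholly higher, and 6.84% and 3.33% lay wholly lower or higher in cSCC than in AK, where no pathway gene did. Mdm4 fell by 1.81 ± 0.35 on the log2 scale for cSCC vs. NS (fold change 0.286, adjusted p = 0.00476, edgeR) and by 1.40 ± 0.36 for cSCC vs. AK (fold change 0.378, adjusted p = 0.0142). It fell by 2.02 ± 0.42 and 1.65 ± 0.42 without cSCC 20 and 21. Over the 23 alternatives of each comparison its calls were all lower, with a log2 fold change between -2.14 and -1.57 against NS and between -1.86 and -1.202 against AK. AK and NS overlapped, and the log2 fold change between them was -0.32 ± 0.17 (adjusted p = 0.258).

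Mdm4 has the largest summed exon length of the set, 14798 bases in GENCODE M21. A length was matched for 96.2% of the genes tested for cSCC vs. NS. Among those of 10000 bases or more, the median log2 fold change was -0.13, and 12% were called lower and 5.55% higher. Among genes of 2000 to 4000 bases the median was 0.33, with 6.12% lower and 16.2% higher. It was 0.16 below 2000 bases, 0.18 from 4000 to 6000 and 0.03 from 6000 to 10000, so the shortest class was not the highest. Fold changes in cSCC thus varied with exon length across genes, and its part in the fall of Mdm4 was not tested. For AK vs. NS the median in the long class was -0.04.

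The ratio of Mdm2 to Mdm4 counts within a library does not depend on how libraries are scaled. It was formed after the values of both genes were seen and is given as a description, without a test. It lay between 0.407 and 0.663 in NS, with a median of 0.524, and between 0.521 and 2.27 in AK, with a median of 0.914, and was 2.93, 3.96, 3.67 and 2.61 in cSCC 18 to 21. Thus 7 of 8 AK exceeded the highest NS, and all 4 cSCC exceeded the highest AK. The ratio in AK 12, the highest of AK, rests on 59 Mdm2 and 26 Mdm4 counts, and those of cSCC 18 and cSCC 20 rest on 14 and 12 Mdm4 counts.

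**Figure D2:**
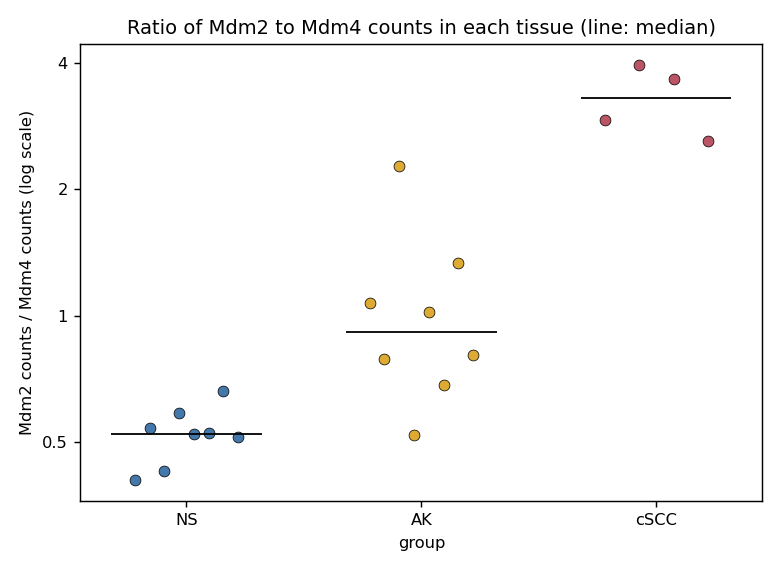
Ratio of Mdm2 to Mdm4 counts (vertical axis, log scale) in each of the 20 tissues by group (horizontal axis), where points are tissues and lines are group medians. NS lie between 0.407 and 0.663, AK between 0.521 and 2.27 and cSCC between 2.61 and 3.96, above every AK.

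Ppm1d (Wip1), a phosphatase that p53 induces and that switches damage signaling off, ranged from 13.3 to 47.9 CPM in NS, from 20.2 to 61.8 CPM in AK and from 3.64 to 35.4 CPM in cSCC. Trp73, the p53 relative p73, was near the detection limit in many libraries, at 1.45 to 7.89 CPM in NS, 1.64 to 8.83 CPM in AK and 0.331 to 11.1 CPM in cSCC. Neither was called in a comparison with all samples. For Ppm1d the levels in cSCC fell apart into 35.4 and 25.0 CPM in replicates 18 and 20, and 4.83 and 3.64 CPM in replicates 19 and 21.

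Turning to cell cycle arrest, Cdkn1a encodes the cyclin-dependent kinase inhibitor p21 and is the textbook p53 target. Its level was 224 to 426 CPM in NS (median 281), 119 to 341 CPM in AK (median 210) and 476, 435, 268 and 198 CPM in cSCC 18 to 21. In AK, 5 of 8 samples were below every NS, and no AK was above the NS range. The log2 fold change was -0.41 ± 0.18 for AK vs. NS (adjusted p = 0.175, edgeR), 0.29 ± 0.28 for cSCC vs. NS (adjusted p = 0.492) and 0.74 ± 0.29 for cSCC vs. AK (adjusted p = 0.0740). None of these was called. In CPM, the 2 tumors with the lowest keratinocyte sums, cSCC 20 and 21, also had the lowest Cdkn1a of the 4. This order rests on the TMM factor of 0.5086 in cSCC 18. In counts, Cdkn1a held 686 of 2830894 there and 236 of 775750 in cSCC 20, a smaller share in cSCC 18. Without cSCC 20 and 21, the log2 fold change was 1.10 ± 0.29 for cSCC vs. AK, which passed (adjusted p = 0.0252, edgeR). It was 0.67 ± 0.26 for cSCC vs. NS, which did not (adjusted p = 0.108). With library size in place of TMM factors the direction for cSCC vs. NS turned, to -0.04.

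Gadd45a, a stress sensor that binds PCNA and slows entry into mitosis, was one of the firmer increases. It lay between 12.4 and 20.9 CPM in NS (median 13.8) and between 12.6 and 30.5 CPM in AK (median 16.96), and reached 50.7, 25.9, 63.7 and 20.5 CPM in cSCC 18 to 21. All cSCC but cSCC 21 were above every NS, and 2 of 4 were above every AK. It rose 2.77-fold for cSCC vs. NS (log2 1.47 ± 0.31, adjusted p = 0.00703, edgeR) and was called higher in each of the 23 alternatives. Against AK it rose 2.30-fold (log2 1.203 ± 0.33, adjusted p = 0.0186), but the call ended without cSCC 18 (adjusted p = 0.0559, log2 1.00) or without cSCC 20 (adjusted p = 0.0701, log2 0.89). That call also ended with library size in place of TMM factors. Without both cSCC 20 and 21, the fold change was 1.37 ± 0.31 against NS (adjusted p = 0.0155) and 1.10 ± 0.36 against AK, which was not called (adjusted p = 0.0572). Of the exons of Gadd45a, 19.1% overlap an antisense transcript, and the counting is not stated to use strand.

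Ccng1, cyclin G1, a p53 target that recruits a phosphatase to Mdm2, had the largest fold change for cSCC vs. NS and cSCC vs. AK among the pathway genes tested with all samples, and that value rested on 1 library. Its level was 54.7 to 249 CPM in NS (median 92.6), 109 to 166 CPM in AK (median 129) and 117, 313, 138 and 1533 CPM in cSCC 18 to 21. The fitted log2 fold change was 2.23 ± 0.59 for cSCC vs. NS (adjusted p = 0.0187, edgeR) and 2.16 ± 0.53 for cSCC vs. AK (adjusted p = 0.0113). Without cSCC 21, the library with the heart muscle markers, it was 0.73 (adjusted p = 0.257) and 0.51 (adjusted p = 0.223), and neither was called. Without both cSCC 20 and 21, it was 0.90 ± 0.48 and 0.76 ± 0.30, also not called.

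Plk2, a polo-like kinase induced after damage, had 42.1 to 82.9 CPM in NS (median 63.1), 44.4 to 66.5 CPM in AK (median 52.4) and 61.1, 191, 59.2 and 84.9 CPM in cSCC. It rose 2.01-fold for cSCC vs. AK (log2 1.01 ± 0.29, adjusted p = 0.0218, edgeR). The call ended without cSCC 19, the highest (log2 0.49, adjusted p = 0.141), without AK 12 (log2 0.91, adjusted p = 0.0506) and without AK 14 (log2 0.87, adjusted p = 0.0616). Without both cSCC 20 and 21, it was 1.32 ± 0.31 (adjusted p = 0.0145). Its relative Plk3 spanned 7.32 to 28.6 CPM in NS, 9.59 to 21.6 CPM in AK and 3.80 to 13.2 CPM in cSCC. Btg2, an antiproliferative factor, spanned 41.4 to 91.8, 19.8 to 107 and 49.3 to 139 CPM in the same order. Zmat3 (Wig-1), an RNA-binding protein, spanned 14.2 to 48.5, 13.9 to 39.3 and 8.27 to 25.9 CPM. None of these 3 was called.

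Among the genes of cell death, Pmaip1, which encodes the BH3-only protein Noxa, separated AK from NS completely. Its level was 13.6 to 107 CPM in NS (median 50.1) and 109 to 156 CPM in AK (median 129). All 8 AK were above all 8 NS, an arrangement found, in that direction, in 0.394% of all genes tested, and in 0.128% in the other. The closest samples were NS 8 at 107 and AK 10 at 109 CPM. The log2 fold change was 1.18 ± 0.29 (2.26-fold, adjusted p = 0.0283, edgeR), and AK were less spread (SD 14.8 CPM around a mean of 130, n = 8) than NS (SD 32.5 around 57.1, n = 8). Within NS, replicates 1, 2, 4 and 5 were at 41.2, 30.1, 13.6 and 40.95 CPM, and replicates 6 to 9 at 67.0, 59.0, 107 and 98.5 CPM. NS pools irradiated and unirradiated skin, and the labels do not tell which these are, so the part of irradiation was not tested. Leaving out NS 1, NS 2, NS 5, AK 13 or AK 16 ended the call, with adjusted p from 0.0514 to 0.0561 and log2 fold changes of 1.12, 1.09, 1.12, 1.16 and 1.14. In cSCC the gene spread over 157, 181, 64.9 and 9.76 CPM in replicates 18 to 21, and the lowest of these was below every NS. Those with the high values had keratinocyte sums of 20207 and 17998 CPM, and those with the low values 5961 and 4530 CPM. The CPM of cSCC 18 rest on its TMM factor of 0.5086. In counts, Pmaip1 held 226 of 2830894 there and 57 of 775750 in cSCC 20, which are similar shares. The parts of scaling and of tissue makeup in this spread were not tested. Pmaip1 was not called in either comparison with cSCC, with a log2 fold change of 0.89 ± 0.59 against NS and -0.26 ± 0.47 against AK. With cSCC 20 and 21 left out, it was 1.59 ± 0.50 (adjusted p = 0.0552) and 0.44 ± 0.20 (adjusted p = 0.168), so the direction against AK turned, again without a call. Leukocyte markers (8 genes) summed to a median of 2071 CPM in NS (1312 to 4696) and 3971 CPM in AK (1397 to 8099), with 0 of the 6 tested called by edgeR and 1 at an unadjusted p under 0.05. Their part in the rise of Pmaip1 was not tested.

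Bax, the effector that permeabilizes mitochondria, spanned 23.9 to 48.7 CPM in NS, with a median of 31.7, and 16.4 to 44.6 CPM in AK, with a median of 32.4. It was at 46.5, 92.3, 88.8 and 38.2 CPM in cSCC 18 to 21. In cSCC, 2 of 4 samples were above every NS and 3 of 4 above every AK. It rose 2.03-fold for cSCC vs. NS (log2 1.02 ± 0.30, adjusted p = 0.0273, edgeR) and 2.28-fold for cSCC vs. AK (log2 1.19 ± 0.32, adjusted p = 0.0161). Leaving out NS 4, NS 5, cSCC 19 or cSCC 20 ended the call against NS (log2 0.98, 0.96, 0.82 and 0.83), and leaving out cSCC 19 ended that against AK (log2 0.98, adjusted p = 0.0566). With both cSCC 20 and cSCC 21 left out it remained called, at 1.07 ± 0.32 and 1.22 ± 0.36. With library size in place of TMM factors, Bax was called in neither comparison. In the annotation, 12.2% of the exons of Bax are shared with another gene model on the same strand.

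Trp53inp1, a stress protein of autophagy and apoptosis that is induced by p53, moved opposite to Bax. It stood at 42.3 to 106 CPM in NS (median 82.0), 49.5 to 84.5 CPM in AK (median 70.3) and 23.6, 15.4, 50.1 and 10.4 CPM in cSCC 18 to 21. Except for cSCC 20, every tumor was below every NS and every AK. It fell by 1.54 ± 0.42 on the log2 scale for cSCC vs. NS (fold change 0.345, adjusted p = 0.0227, edgeR) and by 1.43 ± 0.36 for cSCC vs. AK (fold change 0.372, adjusted p = 0.0122). The second call held under each of the 23 alternatives, whereas the first ended without cSCC 19 (log2 -1.37, adjusted p = 0.0631) or cSCC 21 (log2 -1.28, adjusted p = 0.0501). Without both cSCC 20 and 21, it fell by 1.89 ± 0.43 and 1.78 ± 0.30.

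Perp, a desmosome component of stratified epithelia that p53 and p63 can induce, was by far the most abundant gene of the set. Per kilobase of exon it averaged 2847 CPM in NS, 3076 CPM in AK and 1207 CPM in cSCC, while the next most abundant in NS, Cdkn1a, averaged 82.3 CPM per kilobase. Its level was 4215 to 7919 CPM in NS, 4368 to 7873 CPM in AK and 4944, 2176, 1339 and 967 CPM in cSCC 18 to 21. In CPM, the order of the 4 tumors is that of their keratinocyte sums, both scaled with the TMM factors. The part of tissue makeup was not tested. For cSCC vs. AK it fell by 1.26 ± 0.44 on the log2 scale (adjusted p = 0.0498, edgeR). This call was at the threshold and ended in 11 of 12 cases when 1 library was left out (adjusted p from 0.0598 to 0.115, log2 fold change as weak as -1.08 without cSCC 20), and without both cSCC 20 and 21 it was -0.69 ± 0.36 (adjusted p = 0.225).

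Phlda3, which restrains Akt at the membrane, had 35.4 to 61.6 CPM in NS (median 47.6), 26.5 to 54.6 CPM in AK (median 39.5) and 61.1, 122, 39.8 and 44.2 CPM in cSCC. It rose 1.84-fold for cSCC vs. AK (log2 0.88 ± 0.29, adjusted p = 0.0410, edgeR). The call ended in 10 of 12 cases when 1 library was left out (adjusted p from 0.0531 to 0.268, the weakest fold change being log2 0.41 without cSCC 19). With cSCC 20 and 21 both left out it was larger, 1.30 ± 0.29 against AK (adjusted p = 0.0118) and 0.93 ± 0.28 against NS (adjusted p = 0.0462).

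Fas, the death receptor, reached 32.1 to 82.3 CPM in AK against 19.2 to 43.8 CPM in NS, and all 8 AK were above the NS median. It did not pass after adjustment for AK vs. NS in the edgeR test. Aen, a nuclease of apoptosis, was at 27.1, 88.3, 10.2 and 88.7 CPM in cSCC 18 to 21, where its NS range was 15.3 to 37.8 CPM. Thus cSCC 18 lay inside that range, cSCC 20 below it and the other two above it. It was not called with all samples, and rose for cSCC vs. AK with cSCC 20 and 21 left out (log2 1.21 ± 0.35, adjusted p = 0.0395, edgeR). Apaf1, the scaffold of the apoptosome, ranged from 5.40 to 14.3 CPM in NS, from 9.65 to 26.2 CPM in AK and from 4.80 to 18.5 CPM in cSCC. Ei24, a protein of the endoplasmic reticulum, ranged from 65.3 to 86.0, from 45.6 to 93.5 and from 42.5 to 80.6 CPM. The receptor genes Eda2r and Tnfrsf10b did not exceed 15.3 and 4.93 CPM in any tissue.

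Bbc3 (Puma), a BH3-only protein like Noxa, held 25 counts in all NS together, 42 in AK and 16 in cSCC. Pidd1, a scaffold of caspase-2 activation, held 54, 32 and 29 counts. No difference in either gene was detectable at this depth.

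**Figure D3:**
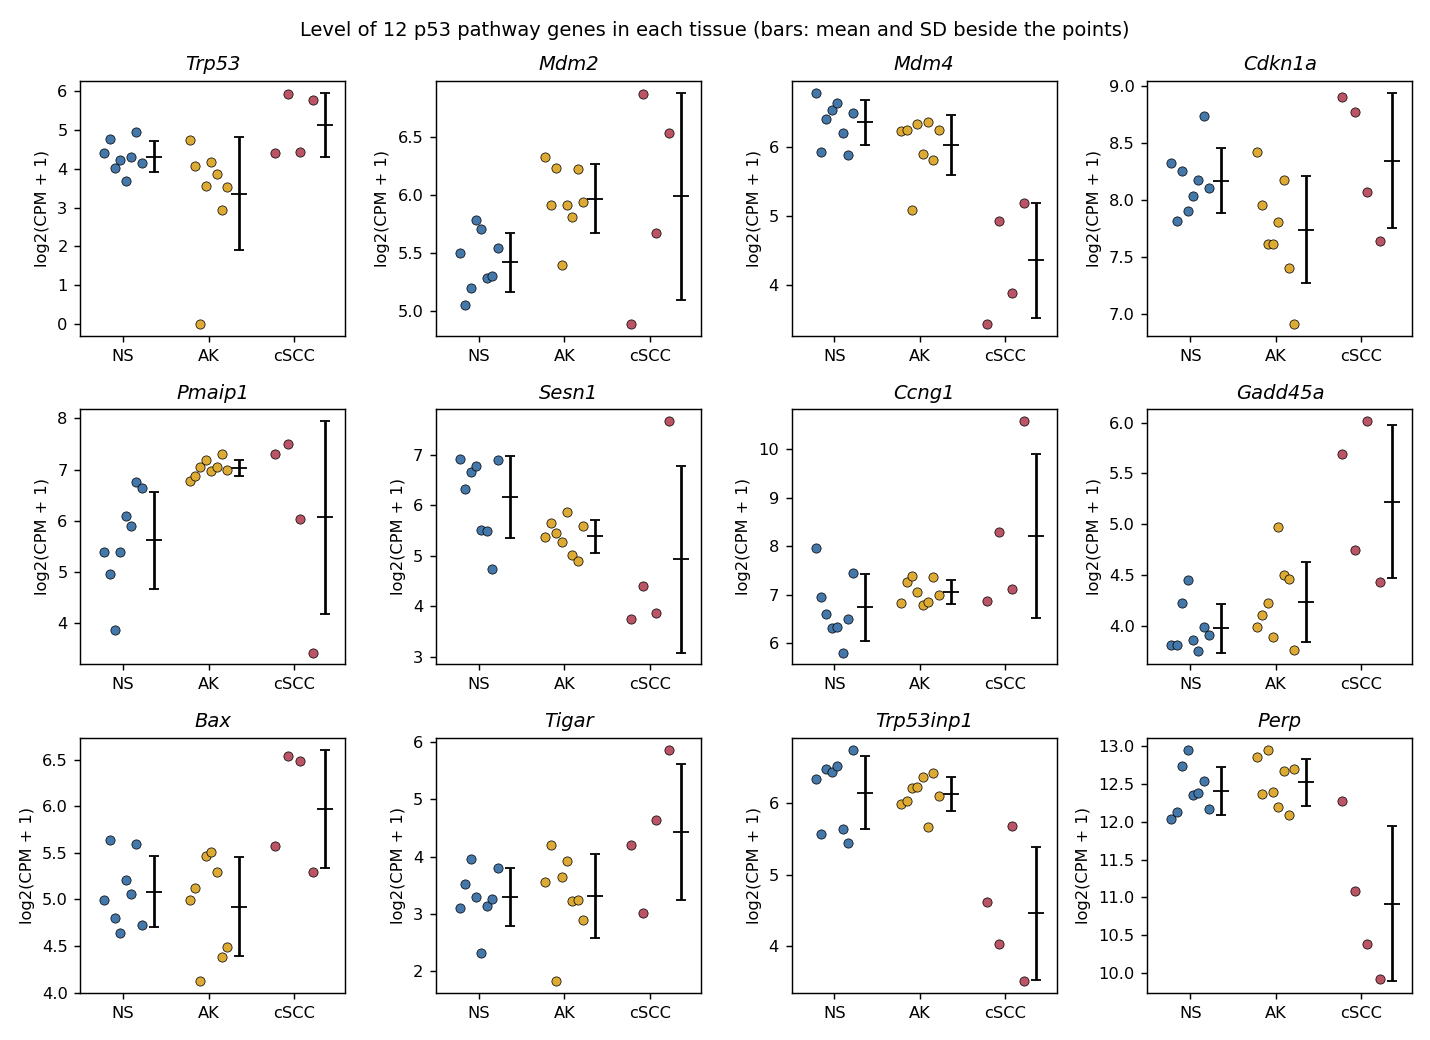
Level of 12 pathway genes as log2(CPM + 1) (vertical axes) in each tissue by group (horizontal axes), where points are tissues and the bar beside them gives the mean and SD. Pmaip1 is higher in all 8 AK than in all 8 NS, Mdm4 is lower in all 4 cSCC than in all 8 NS, and the highest points of Ccng1, Sesn1 and Tigar belong to cSCC 21.

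In the group of metabolism, repair and secreted factors, Sesn1 differed between AK and NS. It encodes sestrin 1, which senses stress and restrains mTORC1. Levels were 25.6 to 119 CPM in NS (median 89.4) and 28.8 to 57.6 CPM in AK (median 41.5). Every AK was below the NS median, although NS 8 was lower than any AK and the groups overlapped. Within NS, replicates 1, 2, 4 and 5 were at 119, 78.8, 100 and 108 CPM, and replicates 6 to 9 at 44.5, 43.7, 25.6 and 118 CPM. The part of irradiation, which the labels do not give for NS, was not tested. Sesn1 fell by 0.96 ± 0.27 on the log2 scale (fold change 0.516, adjusted p = 0.0475, edgeR), and the call ended in 13 of 16 cases when 1 library was left out, with adjusted p from 0.05 to 0.0928 and log2 fold changes of -1.03 to -0.85. Skeletal muscle markers (7 genes) moved in the same direction, with a median sum of 3072 CPM in NS (558 to 7708) and of 1028 CPM in AK (24.9 to 5003), and their part in the result was not tested. In cSCC, Sesn1 was at 12.5, 20.2 and 13.7 CPM in replicates 18 to 20, below every NS and AK, and at 202 CPM in cSCC 21. Skeletal muscle markers summed to 8327 CPM there, beside the heart markers. Of these 7 genes, only Acta1 (mean 1999 CPM in cSCC, 1248 in NS) and Ckm (379 and 54.0) had fold changes above 1 for cSCC vs. NS. Another 4 were called lower, so the sum does not stand for the list as a whole. With cSCC 20 and 21 left out, Sesn1 fell by 2.24 ± 0.60 for cSCC vs. NS (adjusted p = 0.0321) and by 1.26 ± 0.34 for cSCC vs. AK (adjusted p = 0.0281), whereas with all samples it was not called, at -0.26 ± 0.68 against NS and 0.81 ± 0.60 against AK. The direction against AK thus turned when these 2 tumors were left out.

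Tigar, a phosphatase that diverts glucose away from glycolysis, ranged from 3.94 to 14.6 CPM in NS and from 2.52 to 17.3 CPM in AK, with 17.4, 7.03, 23.9 and 57.6 CPM in cSCC 18 to 21. The log2 fold change was 1.59 ± 0.46 for cSCC vs. NS (adjusted p = 0.0275, edgeR) and 1.56 ± 0.50 for cSCC vs. AK (adjusted p = 0.0337). Without cSCC 21 it was 0.80 (adjusted p = 0.244) and 0.64 (adjusted p = 0.401), and without both cSCC 20 and 21 it was 0.38 ± 0.50 and 0.29 ± 0.55, none of them called. Against AK the call also ended when any AK but AK 11 was left out, with adjusted p of 0.0509 to 0.0662.

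Sesn2, Rrm2b and Polk were not called. Sesn2, the second sestrin, ranged from 2.55 to 11.8 CPM in NS, from 2.74 to 10.6 CPM in AK and from 2.78 to 14.4 CPM in cSCC. Rrm2b, a subunit of ribonucleotide reductase for repair, ranged from 7.46 to 21.6, from 6.31 to 15.2 and from 5.56 to 40.4 CPM, and was highest in cSCC 21. Its log2 fold change was 0.62 ± 0.48 for cSCC vs. NS and 0.95 ± 0.46 for cSCC vs. AK, and turned to -0.83 ± 0.50 and -0.56 ± 0.44 without cSCC 20 and 21, none of them called. Polk, a translesion DNA polymerase, ranged from 3.77 to 23.0, from 10.1 to 17.1 and from 6.95 to 36.9 CPM. Gdf15, a secreted stress cytokine, held 2 counts in all NS together, 20 in AK and 31 in cSCC, 25 of which were in cSCC 21, and it had 0 counts in 7 of 8 NS, 3 of 8 AK and 2 of 4 cSCC. When every gene with a count was tested, Gdf15 was called higher for cSCC vs. NS.

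**Figure D4:**
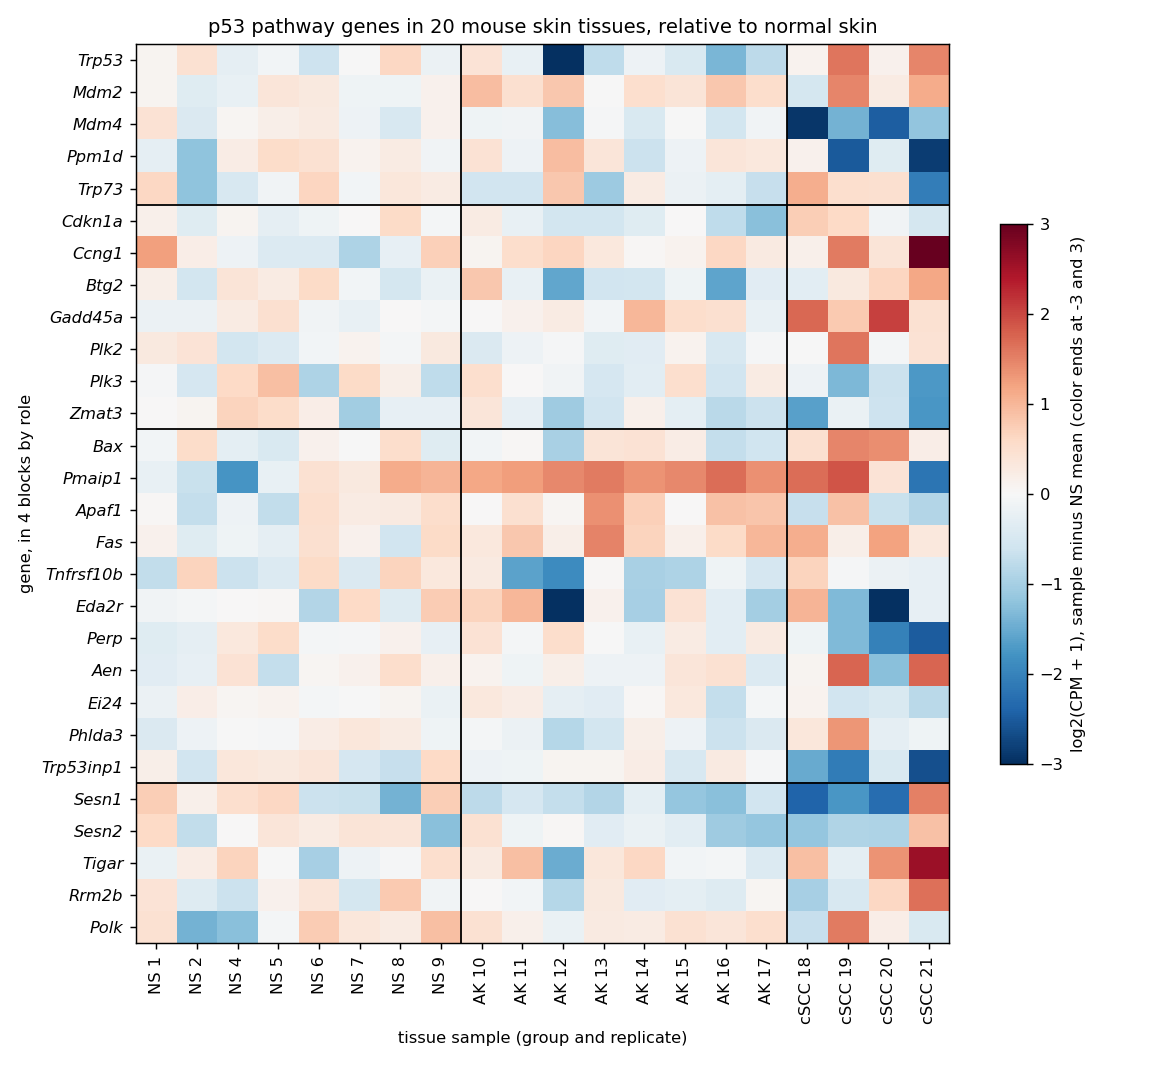
Log2(CPM + 1) of the 28 pathway genes tested in at least 1 comparison (rows, in 4 blocks for core, arrest, death and metabolism, repair or secreted) in the 20 tissues (columns), as the difference from the mean of the 8 NS, with colors ending at -3 and 3. The row of Pmaip1 is red across the 8 AK and that of Sesn1 blue, Mdm4 is blue in the 4 cSCC, and the cSCC columns differ from each other as well as from NS.

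Lists of further p53 genes were examined in the same fits, beside the shares over all genes tested (2.26% higher and 2.38% lower for AK vs. NS, 11.7% and 7.65% for cSCC vs. NS, 16% and 8.34% for cSCC vs. AK). Without cSCC 20 and 21, these shares were 5.74% and 6.46% for cSCC vs. NS and 6.71% and 5.90% for cSCC vs. AK. Of 20 regulators upstream of p53, 1 rose in AK vs. NS, Sirt1, a deacetylase of p53 (log2 0.75 ± 0.19, adjusted p = 0.0341, edgeR), and 0 fell (3 of 20 had an unadjusted p under 0.05). For cSCC vs. NS, 1 rose and 3 fell, and the same counts held for cSCC vs. AK. The acetyltransferase Kat5 (Tip60) rose (log2 1.59 ± 0.39 and 1.99 ± 0.46). Atm, the kinase that signals double-strand breaks, fell by 1.60 ± 0.34 and 1.43 ± 0.35, and Cop1, a ubiquitin ligase for p53, fell by 1.28 ± 0.27 and 1.48 ± 0.21 on the log2 scale. Usp7, the deubiquitinase of p53 and Mdm2, fell by 0.87 ± 0.25 for cSCC vs. NS, and Sirt1 fell by 1.60 ± 0.28 for cSCC vs. AK. The list's median was -0.34 for cSCC vs. NS and -0.17 for cSCC vs. AK. Without cSCC 20 and 21, 0 regulators rose and 3 (Cop1, Crebbp and Hipk2) or 2 (Cop1 and Sirt1) of 20 fell, by the same test. Hipk2, a kinase of p53, had a log2 fold change of 0.69 ± 0.51 against NS with all 4 tumors, not called, and turned to -1.45 ± 0.39 without these 2. Kat5 was no longer called, at 1.39 ± 0.48 and 1.75 ± 0.56, nor was Atm, at -1.25 ± 0.38 and -1.09 ± 0.40.

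Of 42 other genes known as p53 targets, 36 were tested for AK vs. NS, of which 2 rose (Ndrg1, log2 1.46 ± 0.28, and Pcna, log2 0.63 ± 0.18) and 2 fell (Ptp4a3 by 1.45 ± 0.40 and Abhd4 by 0.95 ± 0.26), with a median of -0.06. For cSCC vs. NS, 8 of 38 rose and 0 fell (16 of 38 had an unadjusted p under 0.05), with a median of 0.36. Those with the smallest adjusted p in the edgeR test were Ddit4 (log2 2.38 ± 0.48), Ndrg1 (2.00 ± 0.42), Ptp4a3 (2.75 ± 0.62), Trp53i11 (1.83 ± 0.46) and Sfn (1.54 ± 0.41). Ddit4 and Ndrg1 are also known as genes of the hypoxia response, and Sfn, which encodes 14-3-3 sigma, is a gene of keratinocytes. In cSCC vs. AK, 9 of 39 rose, led by Ptp4a3 (4.29 ± 0.70), Sfn (1.95 ± 0.39), Trp53i11 (2.33 ± 0.47), Abhd4 (2.31 ± 0.49) and Ddit4 (2.41 ± 0.56), and 2 fell, with a median of 0.56. Without cSCC 20 and 21, 6 rose and 2 fell against NS and 7 rose and 3 fell against AK, of 39 tested. Ptp4a3 then stood at 1.40 ± 0.46 against NS, not called, and at 2.87 ± 0.58 against AK, called.

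Of 14 core apoptosis genes outside the set, 0 were called for AK vs. NS by edgeR (6 had an unadjusted p under 0.05). For cSCC vs. NS, 2 rose, namely Bcl2l1, which encodes the survival protein Bcl-xL (log2 1.61 ± 0.41), and Bad, a BH3-only protein (1.06 ± 0.29). Against AK the log2 fold changes of these genes were 2.33 ± 0.38 and 1.49 ± 0.30, both called, and Birc2, an inhibitor of apoptosis, fell by 0.77 ± 0.19. Without cSCC 20 and 21, only Bad of these 14 genes rose against NS, where Bcl2l1 stood at 0.62 ± 0.45, and 2 rose and 1 fell against AK.

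Genes of the cell cycle that p53 represses through p21 and the DREAM complex formed the last list, of 18 genes. For AK vs. NS, 17 of 18 were above 0 (94.4%, beside 47.0% of all genes tested) with a median log2 fold change of 0.45, 6 had an unadjusted p under 0.05, and 1, the cyclin Ccna2, was called (log2 0.86 ± 0.22, adjusted p = 0.0326, edgeR). Against NS, 5 rose in cSCC and 0 fell, namely Cenpa (1.62 ± 0.36), Aurka (1.77 ± 0.42), Cdc20 (1.58 ± 0.38), Plk1 (1.73 ± 0.50) and Mcm3 (0.81 ± 0.27), with a median of 0.85. Against AK, 4 rose and 0 fell, which were Cdc20 (1.59 ± 0.25), Aurka (1.80 ± 0.37), Plk1 (2.18 ± 0.46) and Cenpa (1.34 ± 0.29), with a median of 0.31. In these comparisons 15 and 13 of 18 were above 0, beside 56.9% and 57.3% of all genes tested. Without cSCC 20 and 21, the counts that rose were 8 and 4 of 18, beside 5.74% and 6.71% of all genes tested.

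To ask whether targets of p53 vary together from tissue to tissue within a group, Cdkn1a was correlated with Mdm2, Ccng1, Phlda3, Zmat3, Trp53inp1, Sesn1, Eda2r and Bax over log2(CPM + 1) in NS and in AK, 16 relations in all. By two-sided exact permutation, 0 of the 16 passed after adjustment and 0 had an unadjusted p under 0.05 for Pearson's r. The values of r ran from -0.51 to 0.24 in NS and from -0.51 to 0.69 in AK (n = 8 each, exact permutation), and Spearman's rho from -0.38 to 0.26 and from -0.67 to 0.74. The highest was that of Zmat3 in AK, r = 0.69 (exact permutation p = 0.0562, adjusted p = 0.576) and rho = 0.74 (p = 0.0458, adjusted p = 0.385), and r was 0.61 after the 2 tissues with the most extreme Cdkn1a were dropped. The same step moved r of Mdm2 in NS from -0.17 to -0.74 and of Trp53inp1 in AK from -0.51 to -0.87, so these values depend on a few tissues. With 8 tissues per group only strong relations could have passed.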

How the data were processed

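RNA-seq counts of 20 mouse skin tissues were used, grouped by their labels. The authors trimmed reads, aligned them with HISAT2 and deposited raw counts per gene symbol. Per the submitters' processing notes the tools were Trimmomatic 0.36, HISAT2 2.0.5 and featureCounts 1.5.2, with builds hg19 and mm9, whereas the study's methods name GRCm38 and StringTie. The labels name a HiSeq and daily irradiation, the methods a NextSeq and fewer days. The strand used in counting is not given in the sources used here, so overlapping genes (Gadd45a, Bax, Cdkn1a, Ei24, Plk3, Rrm2b, Tigar and Trp73) have uncertain counts.

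CPM used TMM factors over all 20 samples. Groups were compared on the deposited counts of the 2 groups alone with edgeR 4.0.16 (quasi-likelihood test, filterByExpr, R 4.3.3), and p-values were adjusted by Benjamini-Hochberg over all genes tested. The standard error is the log2 fold change divided by the square root of the F statistic. The study instead tested normalized values gene by gene without stating an adjustment, and its fold limits of 1.5 and 0.67 were kept. Its rule was approximated by a two-sample t-test on log2(CPM + 1), unadjusted, over the genes that passed the edgeR filter. The counts of genes called in this way differ from those the study reports. The script was tested on simulated data. Correlations used scipy 1.17.1 with a pseudocount of 1. Gene models were GENCODE M21 (GRCm38), used for names, lengths and overlaps.

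All 31 genes were named. Fold changes with tests were printed for genes called, and for Trp53, Cdkn1a and Mdm2 throughout. Of wider lists, at most the 5 called genes with the smallest adjusted p were named per comparison. A gene of the core apoptosis list is not reported here and was left out of that list's counts. Fold changes of Mdm4 for AK vs. NS and of genes without cSCC 20 and 21 were added after their values were seen. The genes, lists and alternatives were chosen with earlier results of these data known. Alternatives were DESeq2 1.42.0, limma 3.58.1 voom with sample weights, other scalings, filters and thresholds, 1 fit of all samples and leaving out libraries. The labels do not tie tissues to mice, so p-values measure the spread between these tissues.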

Additional observations from a re-analysis of the deposited data

Results flagged for a closer look

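Within groups of 4 to 8 tissues, 6 of the 84 combinations of a gene tested in at least 1 comparison and a group held a sample that stood apart by Dixon's criterion, which chance alone flags in about 1 of 20 groups. Trp53 was at 0 CPM in AK 12, where the nearest AK had 6.59 CPM, and Mdm4 was lowest in the same library, at 32.8 CPM with the nearest at 55.1 CPM. AK 12 was the shallowest AK library, with 867219 counts. Ppm1d was at 13.3 CPM in NS 2, and the nearest NS had 26.8 CPM. In cSCC 19, Apaf1 was at 18.5 CPM, and the other cSCC had at most 5.69 CPM. In cSCC 21, the library with heart muscle markers, Sesn1 was at 202 CPM and Sesn2 at 14.4 CPM, and the nearest cSCC had 20.2 and 3.52 CPM.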

How the results depend on the processing

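No paired analysis was possible because the labels do not name the mouse of a tissue. For AK vs. NS, 1 gene rose and 1 fell. These counts were 2 higher with DESeq2, without a fold limit or by the study's rule as approximated here, 3 with unadjusted p, 0 in a single fit of all samples, and 0 lower in that fit or with every gene with a count. Over all genes, the single fit called 5 higher and 4 lower of 12847, so its 0 is not particular to the pathway. Of all 11677 genes, DESeq2 called 433 higher and 616 lower, unadjusted p 708 and 1090, and the study's rule 842 and 986. Leaving out a library gave 0 to 2 higher and 0 to 1 lower, beside 87 to 437 and 77 to 483 over all genes. For cSCC vs. NS (5 and 2), limma voom or library size alone gave 2 higher, and 3 were higher without cSCC 20 and 21. The single fit gave 4 lower, unadjusted p 9 higher and 5 lower, and the study's rule 6 lower. Of all 12097 genes, limma voom called 768 higher and 540 lower, unadjusted p 2440 and 1612, and the study's rule 1352 and 2039. The single fit called 1783 and 1488 of 12847. Leaving out a library gave 2 to 7 higher and 2 to 4 lower, beside 859 to 1890 and 703 to 1291 over all genes. For cSCC vs. AK (7 and 3), limma voom gave 2 higher, library size alone 1 higher and 5 lower, every gene with a count 3 higher, and the study's rule 4 higher and 6 lower. Of all 12032 genes, limma voom called 726 higher and 544 lower and the study's rule 1477 and 2280. With every gene with a count, 1819 and 1160 of 17646 were called. Leaving out a library gave 3 to 7 higher and 2 to 5 lower, beside 837 to 2330 and 768 to 1664 over all genes. Library size alone turned Cdkn1a in cSCC vs. NS to a log2 fold change of -0.0443 and moved the median of all genes there from 0.14 to -0.17, and for cSCC vs. AK from 0.17 to -0.09. It moved the calls over all genes from 1414 higher and 926 lower to 625 and 1332 against NS, and from 1931 and 1004 to 1021 and 1356 against AK. Among 609 refits of the genes called and of Trp53, Cdkn1a and Mdm2, this was the 1 reversal, 481 kept direction and side of the threshold, 117 lost and 10 gained a call. Over all pathway genes, 8 of 55 fold changes in cSCC turned sign without cSCC 20 and 21 (Apaf1, Eda2r and Rrm2b against NS, and Eda2r, Pmaip1, Rrm2b, Sesn1 and Sesn2 against AK), of which Sesn1 was then called lower. The cause of these shifts was not tested. No correlation passed under either alternative. Depth limited Bbc3, Pidd1, Gdf15 and Tnfrsf10b, and Trp53 in shallow libraries such as AK 12, where it had 0 counts.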
